A study of Caenorhabditis elegans with 6 samples.

Results

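Subunits of the mitochondrial respiratory chain and of ATP synthase that Caenorhabditis elegans encodes in its nuclear genome were followed through 31 named genes of complexes I, III (with cytochrome c), IV and V. A gene counted as measured if the platform annotation gave it a probe set with no other gene symbol. By that rule 30 of the 31 genes (of 10613 genes tested in all) had 43 probe sets of the 22548 on the array that are not controls, and nuo-3 had none. All 43 lay above the level set for testing, as did 13792 probe sets in all. Most were very bright: 37 of the 43 were among the brightest 10% of the probe sets tested, and the median member stood at the 96.0th percentile of mean log2 signal.

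RNA came from whole worms at the fourth larval stage (L4), synchronised by bleaching and grown on solid medium with the bacterial strain E. coli OP50. The 2 groups were atfs-1(et18), a strain with a point-mutation allele of atfs-1, and the wild-type strain N2. Each had 3 arrays from biological replicates, numbered 1 to 3. The signals are MAS5 values, a linear brightness per probe set. Brightness depends on the probes, so it describes a probe set and does not rank the transcript levels of genes.

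The respiratory chain passes electrons from NADH through complex I, ubiquinone, complex III and cytochrome c to oxygen at complex IV, pumping protons across the inner mitochondrial membrane, and complex V uses that gradient to make ATP. Most subunits are encoded in the nucleus, while some core subunits are encoded in mitochondrial DNA. In worms ATFS-1 is the transcription factor that drives the unfolded protein response of mitochondria: it is imported into healthy mitochondria and degraded there, and it acts in the nucleus when import fails. The et18 mutation lies in its mitochondrial targeting region and has been described as making the factor active without stress. ATFS-1 has also been described, in worms under mitochondrial stress, as binding at genes of oxidative phosphorylation and limiting their transcripts. The arrays include no group under added stress and no binding data, so that role was not tested. They compare the transcripts of these genes between the genotypes.

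No respiratory chain or ATP synthase gene passed the threshold in atfs-1(et18) worms. Of the 43 probe sets 0 were higher and 0 were lower at a limma adjusted p under 0.05, where 3.93% of all 13792 probe sets were called. At an unadjusted p under 0.05 the members numbered 6 of 43 (3 higher, 3 lower), against 17.2% of all probe sets. The changes were also small: each of the 43 had a 95% interval, taken singly, that lay inside a 2-fold change in either direction, with log2 changes (atfs-1(et18) minus wild-type) between -0.42 and 0.54 and a median standard error of 0.15. The same held for 9040 of the 13792 probe sets tested, and for 1234 of the 1380 in the brightest 10%. Arrays of the genotypes did not overlap for 11 of the 43 probe sets (5 higher, 6 lower in atfs-1(et18)), close to the 23.3% of all probe sets for which this was so.

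**Figure D1:**
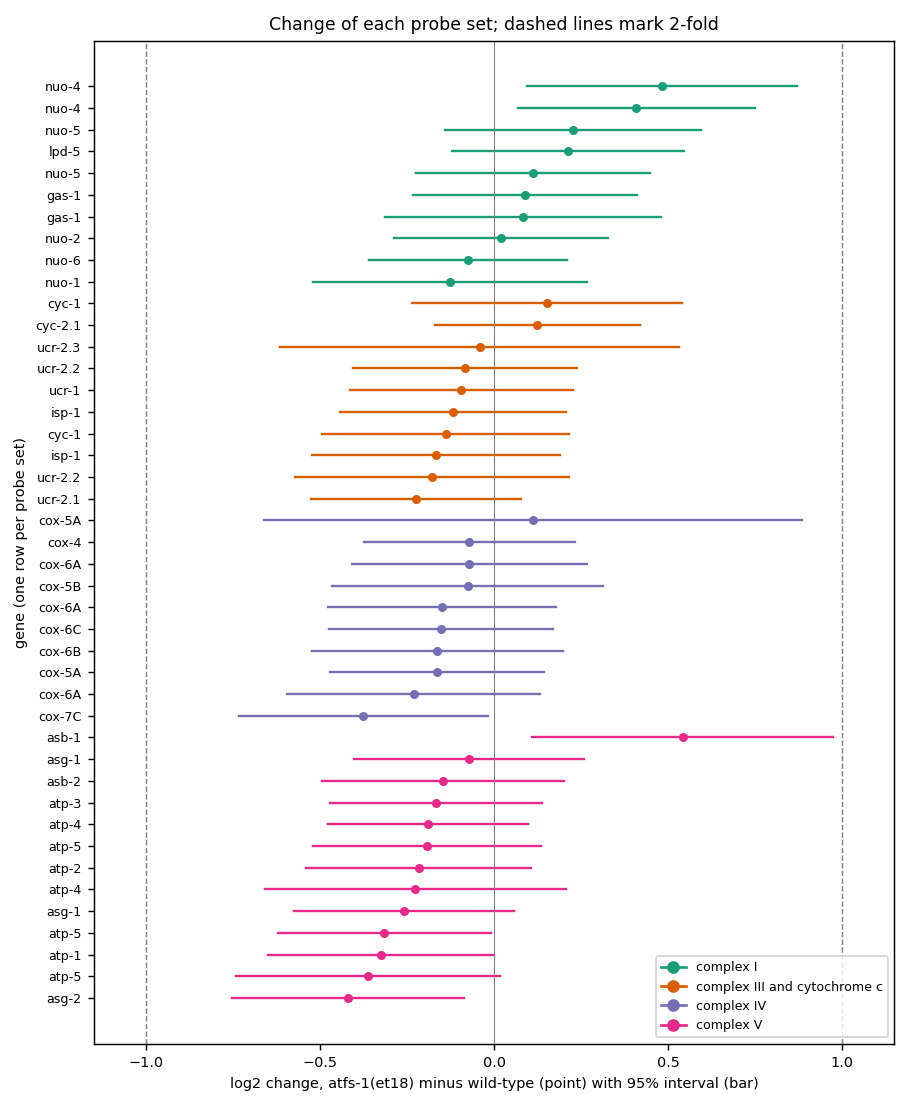
Log2 change (atfs-1(et18) minus wild-type) of all 43 probe sets on the horizontal axis, as a point with its 95% interval, by complex down the page. Each interval lies between the dashed lines that mark a 2-fold change; the direction of most complex IV and of several complex V probe sets turns under quantile normalization.

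The direction of the small changes varied from complex to complex, without a test of that difference. Complex I had a median log2 change of 0.10 over 10 probe sets, 8 of them positive. Complex III with cytochrome c had -0.11 over 10 probe sets and 2 positive, complex IV had -0.15 over 10 and 1 positive, and complex V had -0.22 over 13 and 1 positive. The median over all 43 was -0.13 and over all probe sets tested -0.008. Bright probe sets as a whole were lower on the atfs-1(et18) arrays: the brightest 10% of those tested (1380) had a median of -0.14, with 67.8% negative, against 72.1% negative among the members. With quantile normalization the brightest 10% came to a median of -0.02, the members to 0.02 and complex IV to 0.08, while complex I was at 0.12 and complex V at -0.11. The complex I median was -0.10 when probe sets of several possible targets were left out, which kept only nuo-1 and nuo-6. The part that the bright end of the arrays has in the lower values of complexes III, IV and V was not tested further.

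**Figure D2:**
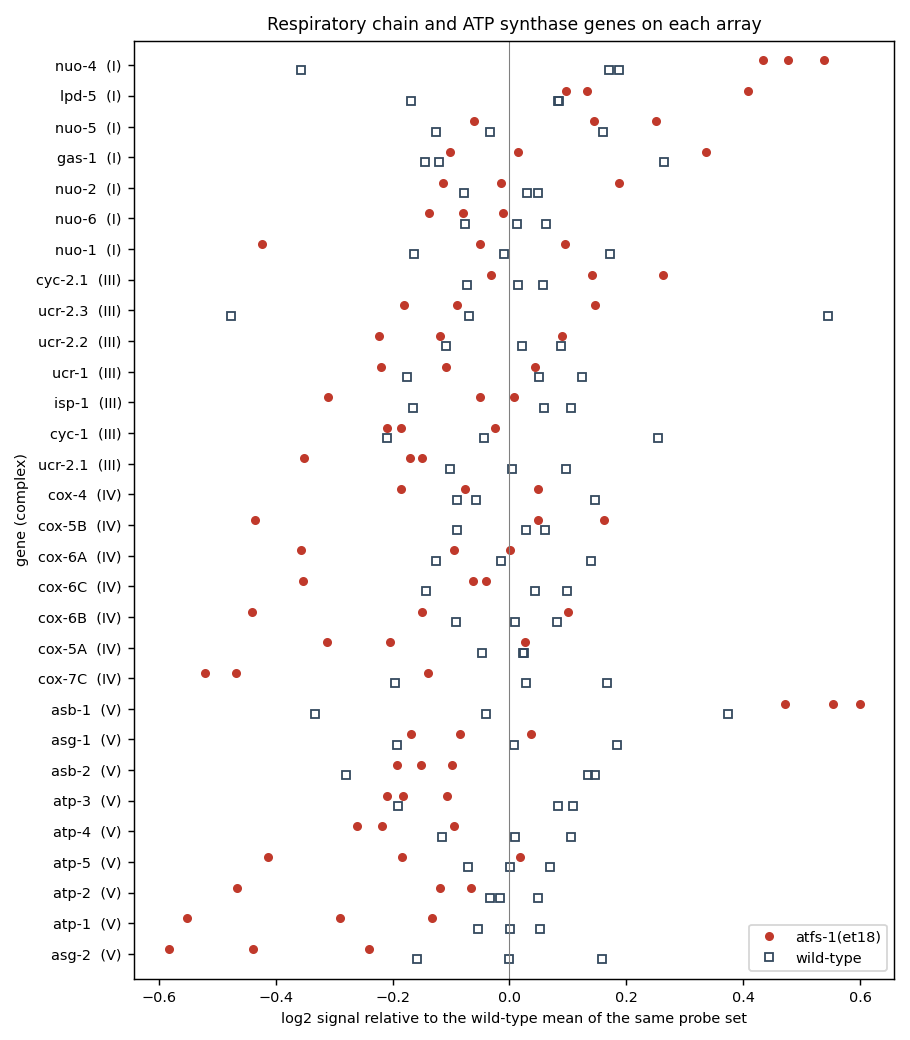
Log2 signal of each gene's brightest probe set on the 6 arrays, relative to the wild-type mean of that probe set, with genes ordered by complex. Filled circles are atfs-1(et18) and open squares wild-type; nuo-4, lpd-5 and asb-1 lie to the right of all wild-type arrays, and ucr-2.1, atp-1, atp-2 and asg-2 to the left.

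In complex I, the entry point for electrons from NADH, the member with the largest change was nuo-4, which encodes a homologue of the accessory subunit NDUFA10. Its brightest probe set read 6466, 6954 and 6658 in atfs-1(et18) worms, against 5384, 3740 and 5449 in wild-type worms. All atfs-1(et18) arrays were above all wild-type arrays, and the lowest wild-type array was replicate 2. The log2 change was 0.48 ± 0.17 (SE; limma adjusted p = 0.191, from 0.0336 to 0.478 over its alternatives). A further nuo-4 probe set gave 5646, 6891 and 5945 in atfs-1(et18), against 4077, 4631 and 5244 in wild-type, again with no overlap (0.41 ± 0.15, limma adjusted p = 0.208). Both probe sets are of a kind that can bind other transcripts.

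The complex I subunit lpd-5 is the homologue of NDUFS4. It read 8415, 6779 and 6952 in atfs-1(et18) and 5647, 6720 and 6724 in wild-type, so the groups did not overlap although 2 wild-type arrays lay just under the lowest mutant one (0.21 ± 0.15, limma adjusted p = 0.519). For nuo-5, the homologue of the iron-sulfur subunit NDUFS1, the brighter probe set read 2986, 3704 and 3441 in atfs-1(et18) and 3477, 2854 and 3042 in wild-type, and the groups overlapped (0.11 ± 0.15). Its dimmer probe set did not overlap, with 532, 472 and 465 against 402, 456 and 399 (0.23 ± 0.16, limma adjusted p = 0.541). The remaining subunits of the electron-accepting arm had changes close to 0. The complex I subunit gene gas-1 read 3650, 4562 and 3367 in atfs-1(et18) and 3325, 3270 and 4341 in wild-type, with changes of 0.08 and 0.09 on its probe sets.

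The flavoprotein subunit nuo-1 read 3455, 3824 and 2669 in atfs-1(et18) and 3196, 4034 and 3559 in wild-type (-0.13 ± 0.17), and nuo-2, of the same arm, had a change of 0.02 ± 0.13. The log2 change of nuo-6, an accessory subunit in which a mutation lengthens worm lifespan, was -0.08 ± 0.13, with a 95% interval from -0.36 to 0.21. The groups overlapped for nuo-1, nuo-2, nuo-6 and gas-1.

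In complex III, isp-1 encodes the Rieske iron-sulfur protein, whose mutation is a standard trigger of the mitochondrial unfolded protein response in worms. It read 19164, 19947 and 16001 in atfs-1(et18) and 17700, 20661 and 21342 in wild-type (-0.12 ± 0.14, limma adjusted p = 0.748), and its direction turned to 0.11 with quantile normalization. The groups overlapped, with atfs-1(et18) replicate 3 lowest of all. The cytochrome c1 gene cyc-1 gave opposite signs on its probe sets, -0.14 ± 0.16 on the brighter and 0.15 ± 0.17 on the dimmer. The 95% intervals of both span 0.

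The core protein genes had 0 calls. The core protein 1 gene ucr-1 had a change of -0.09 ± 0.14. Of the 3 core protein 2 genes, ucr-2.1 read 4204, 4267 and 3708 in atfs-1(et18) and 4410, 5061 and 4745 in wild-type, the one complex III probe set with no overlap (-0.22 ± 0.13, limma adjusted p = 0.446). The changes of ucr-2.2 were -0.08 and -0.18 on its probe sets. The gene ucr-2.3 varied widely, at 933, 875 and 1098 in atfs-1(et18) and 1448, 946 and 713 in wild-type (-0.04 ± 0.25). Its sign followed wild-type replicate 1, the highest array: without it the change was 0.23.

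The cytochrome c gene cyc-2.1, the mobile carrier between complexes III and IV, had a positive change. It read 27348, 25122 and 22301 in atfs-1(et18) and 21682, 23018 and 23715 in wild-type (0.12 ± 0.13, limma adjusted p = 0.697). With quantile normalization its change was 0.38, with a limma adjusted p = 0.0521, the smallest over its alternatives.

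Complex IV, which reduces oxygen, had no probe set without overlap among 10. The largest change was that of cox-7C, with 10694, 13440 and 10308 in atfs-1(et18) and 12926, 16620 and 15082 in wild-type (-0.38 ± 0.16, fold 0.770, limma adjusted p = 0.271). Here atfs-1(et18) replicate 2 lay above wild-type replicate 1. The other subunits sat in a narrow band: cox-4 at -0.07, cox-5B at -0.08, cox-6A between -0.23 and -0.07 on 3 probe sets, cox-6B at -0.16, cox-6C at -0.15 and the brighter cox-5A probe set at -0.16, none past the threshold. With quantile normalization all of these except the cox-5A value were positive.

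One array was low for many of these genes. The gene cox-5B, known as cco-1 and a classic RNAi target that induces the mitochondrial stress response, read 21173, 19563 and 13989 in atfs-1(et18) and 19749, 17784 and 19291 in wild-type. Its atfs-1(et18) replicate 3 was the lowest array, while replicate 1 was the highest and replicate 2 lay among the wild-type ones. The same array was lowest for cox-6B, at 17423, 20733 and 14249 in atfs-1(et18), against 20448, 18155 and 19466 in wild-type. Over all members atfs-1(et18) replicate 3 was the lowest array for 20 of 43 probe sets and the highest for 1. Without it the median change was -0.05 for complex IV and -0.07 for all members. The 1 high value belongs to the dimmer cox-5A probe set, which read 1742, 1451 and 4016 in atfs-1(et18) and 1732, 2179 and 2133 in wild-type. The other cox-5A probe set was at its lowest on that same array (7069).

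**Figure D3:**
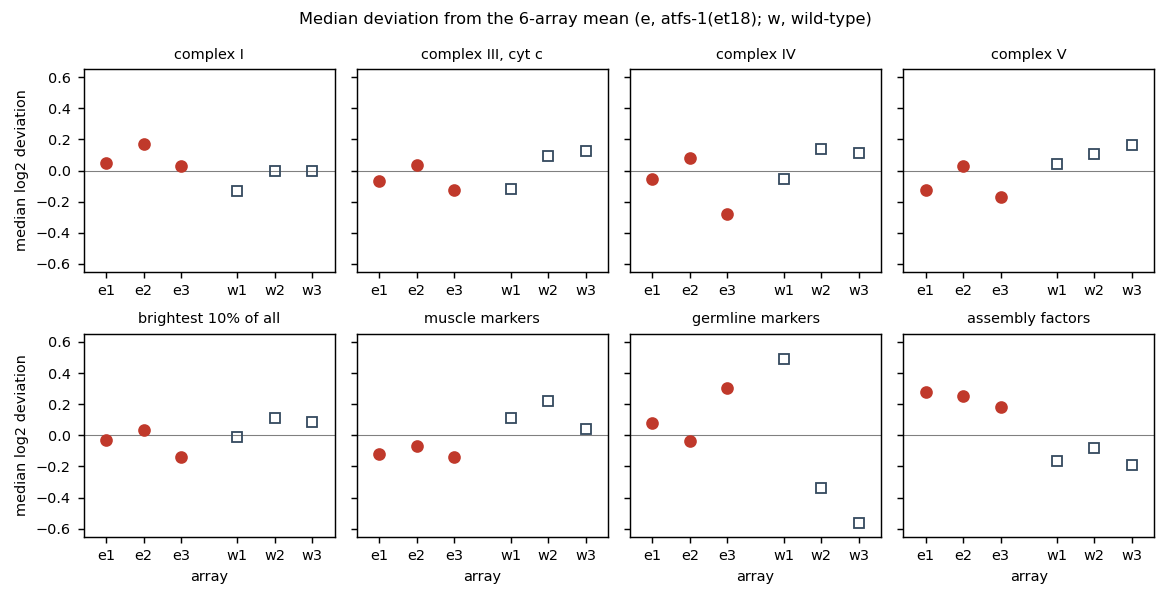
Median log2 deviation from the 6-array mean for each set of genes, on the 3 atfs-1(et18) arrays (e1 to e3, filled circles) and the 3 wild-type arrays (w1 to w3, open squares). Complexes III and IV and the brightest 10% of all probe sets are lowest on e3, complex V and the muscle markers are lower on all e than on all w arrays, and the assembly factors are higher on all e arrays.

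In complex V, 12 of 13 probe sets had negative changes. Arrays did not overlap for 6 of its 13 probe sets, of which 5 were lower and 1 was higher in atfs-1(et18). Among all probe sets tested 10.8% were lower and 12.5% higher without overlap. Of the brightest 10% of those tested, 296 of 1380 were lower and 141 higher without overlap. The median of complex V over its probe sets lay between -0.17 and 0.03 on the atfs-1(et18) arrays and between 0.04 and 0.17 on the wild-type arrays, as deviations from the 6-array mean. Within the catalytic head, the alpha subunit gene atp-1 read 11171, 12464 and 9314 in atfs-1(et18), against 14164, 13157 and 13675 in wild-type. All atfs-1(et18) arrays were lower, and the change was -0.32 ± 0.14 (limma adjusted p = 0.290). The beta subunit gene atp-2 read 21954, 22769 and 17245 in atfs-1(et18), against 24660, 23558 and 23292 in wild-type (-0.22 ± 0.14, limma adjusted p = 0.495), and its sign turned to 0.02 with quantile normalization.

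The stalk subunits were similar. The oligomycin-sensitivity protein gene atp-3 had a change of -0.17 ± 0.13, the coupling factor gene atp-4 of -0.19 and -0.23 on its probe sets, and the subunit d gene atp-5 of -0.19, -0.36 and -0.32 on its 3. One of the atp-5 probe sets did not overlap, at 8939, 9532 and 8361 in atfs-1(et18) and 10264, 12510 and 10708 in wild-type (-0.32 ± 0.13, limma adjusted p = 0.277). The brightest atp-5 probe set and the brightest atp-4 one turned to 0.04 and 0.07 with quantile normalization.

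Subunits b and g each have a pair of genes in worms. The gene asb-1 encodes a subunit b isoform that is specific to the germline, and asb-2 encodes the other isoform. The signals of asb-1 were 2256, 2185 and 2065 in atfs-1(et18), against 1928, 1182 and 1448 in wild-type. Every atfs-1(et18) array was higher, and wild-type replicate 1 stood closest to them. Its log2 change was 0.54 ± 0.19 (fold 1.46, 95% interval 1.08 to 1.96, limma adjusted p = 0.189), the largest of all members. Without wild-type replicate 1 it was 0.73 with a limma adjusted p = 0.0309, the one setting that left out an array and gave a member call.

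The signals of asb-2 were 4613, 4927 and 4749 in atfs-1(et18) and 4343, 5784 and 5834 in wild-type, with overlap and a change of -0.15 ± 0.15. The within-array log2 difference of asb-1 from asb-2 was 0.69 higher in atfs-1(et18) than in wild-type (exact two-sided permutation p = 0.3, n = 3 each; 0.1 is the smallest that 3 against 3 arrays can give). Without wild-type replicate 1 this difference was 1.02, and without wild-type replicate 2 it was 0.46. The wild-type arrays spread widely in this difference, with an SD of 0.58, against 0.09 in atfs-1(et18).

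Germline markers varied over the same wild-type arrays. Their median deviation was 0.08, -0.04 and 0.30 in atfs-1(et18), against 0.49, -0.34 and -0.56 in wild-type. Among the wild-type arrays replicate 1 was highest in both asb-1 and the markers. It lay above all atfs-1(et18) arrays for the markers but below all of them for asb-1. Of 22 germline and oocyte markers 17 were positive, with a median of 0.29, and 5 had an unadjusted p under 0.05, all higher. One was called higher (prg-1, a Piwi protein, 1.52 ± 0.22, limma adjusted p = 0.00666), where 2.69% of all genes were, and 2 did not overlap in the higher direction, where 12.9% of all genes did not. Without wild-type replicate 1, a setting in which asb-1 was called, 5 of these markers were called higher. Calls were more frequent in general there: 871 of all probe sets were called, higher or lower, against 542 with no array left out. The summed signal of the 22 markers ran from 19450 to 23960 in atfs-1(et18) and from 12940 to 25240 in wild-type. The part of germline amount in the asb-1 values was not tested. In RNA of whole worms, fewer cells of a type and less RNA per cell cannot be told apart.

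For subunit g, asg-2 had the largest lower value of all members. It read 9483, 10871 and 8579 in atfs-1(et18), against 11514, 14343 and 12841 in wild-type, with no overlap (-0.42 ± 0.15, fold 0.747, limma adjusted p = 0.186, from 0.0279 to 0.494 over its alternatives). The brighter asg-1 probe set overlapped, at 5095, 5542 and 4807 in atfs-1(et18) and 4725, 5434 and 6140 in wild-type (-0.07 ± 0.15). The difference of asg-2 from asg-1 was lower by 0.35 on the log2 scale in atfs-1(et18) (-0.35, exact two-sided permutation p = 0.1, the smallest possible with n = 3 each). Against the other asg-1 probe set, which did not overlap either (-0.26 ± 0.14), the difference came to -0.16 (exact permutation p = 0.4).

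**Figure D4:**
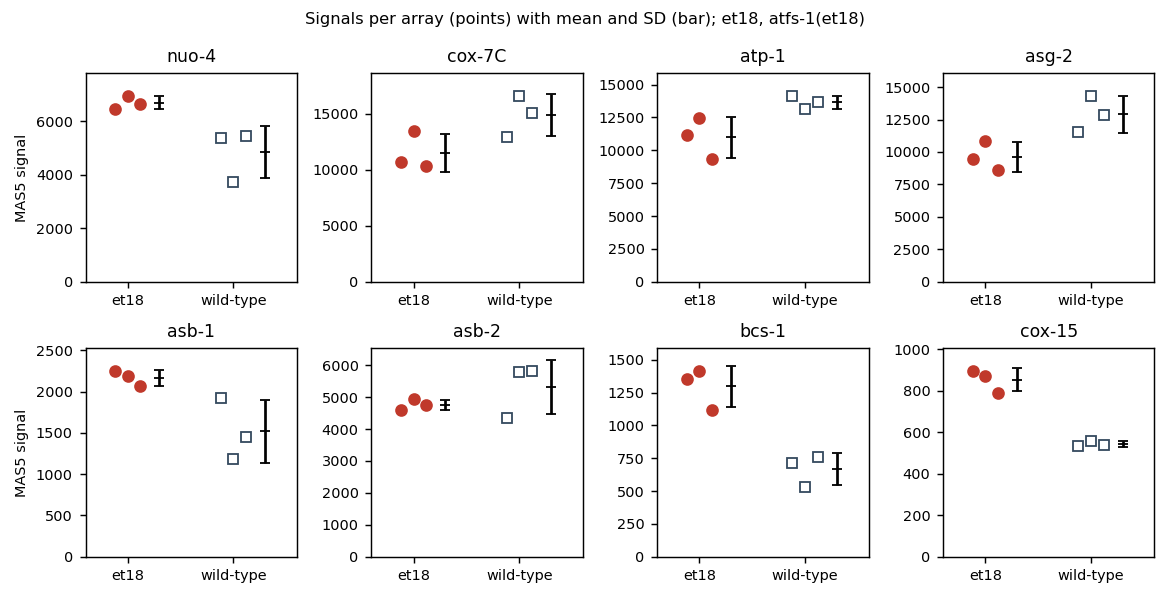
MAS5 signals (linear axis from 0) on each array for 6 members and the assembly factors bcs-1 and cox-15, atfs-1(et18) at the left of each panel and wild-type at the right, with mean and SD (n = 3) beside the points. The groups do not overlap for nuo-4, atp-1, asg-2, asb-1, bcs-1 and cox-15.

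Markers of muscle, a tissue rich in mitochondria, had 0 calls among 11. All 11 changes were negative (median -0.26) and 3 did not overlap in the lower direction, against 10.4% of all genes, and their summed signal was 80110 to 92310 in atfs-1(et18) and 98100 to 111900 in wild-type. The muscle genes with the smallest p were unc-22, encoding twitchin (-0.74 ± 0.17, limma adjusted p = 0.0501, under the threshold in 7 of 18 alternatives), and unc-54, a myosin heavy chain (-0.38 ± 0.15, limma adjusted p = 0.243). Of 10 intestine markers 8 were negative (median -0.26), and 2 did not overlap in the lower direction. The 1 called lower, against 1.37% of all genes, was the peptide transporter gene pept-1 (-1.21 ± 0.17, limma adjusted p = 0.00697). The summed signals of the 10 were 55070 to 78970 in atfs-1(et18) and 67580 to 95370 in wild-type. Of 28 sperm markers 0 were called and 27 were negative (median -0.32), with summed signals of 258900 to 329000 in atfs-1(et18) and 328900 to 442400 in wild-type. Among the 28, 9 did not overlap in the lower direction, against 10.4% of all genes. Examples are msp-65 (-0.45 ± 0.14) and msp-78 (-0.40 ± 0.13). Most of the 28 are major sperm protein genes on probe sets that can bind each other's transcripts, so their values are not separate measurements. With probe sets of several possible targets left out, the sperm marker median was -0.06. The part of tissue make-up in the complex V values was not tested.

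Further subunits outside the 31 genes had medians of the same sign as the members of their complex. Of 26 other complex I subunits 0 were called (3 at an unadjusted p under 0.05, against 17.4% of all 10613 genes), and 21 were positive with a median of 0.13. Without overlap 8 were higher and 1 was lower, against 12.9% and 10.4% of all genes. The smallest p was that of ndua-12, an accessory subunit, which read 7239, 7098 and 8533 in atfs-1(et18), against 5961, 4765 and 5200 in wild-type (0.52 ± 0.15, limma adjusted p = 0.0995, and 0.0179 with array weights). The next was nduf-6, another accessory subunit (0.33 ± 0.13, limma adjusted p = 0.250). Of 8 other ATP synthase subunits and inhibitors 0 were called (1 at an unadjusted p under 0.05), and 7 were negative with a median of -0.27. Of these 8 genes 5 were lower and 1 was higher without overlap, against 10.4% and 12.9% of all genes. In the brightest 10% of probe sets tested, 296 of 1380 were lower without overlap. With quantile normalization the median of these 8 genes was -0.07. Among them the delta subunit gene F58F12.1 had a change of -0.31 ± 0.13 and the subunit f gene R53.4 of -0.31 ± 0.14.

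Of 5 other genes listed with complex III and cytochrome c 0 were called and all 5 were negative (median -0.10), with T02H6.11 at -0.36 ± 0.18 and R07E4.3 at -0.17 ± 0.17. In complex II, which feeds electrons from succinate and has no subunit in mitochondrial DNA, 0 of 5 genes were called. One of its flavoprotein genes, sdha-2, read 1546, 1199 and 1617 in atfs-1(et18), against 964, 862 and 440 in wild-type (1.01 ± 0.29, fold 2.02, limma adjusted p = 0.111), while sdha-1 had -0.28 ± 0.16. The 3 adenine nucleotide translocator genes tested, whose products exchange ATP for ADP across the inner membrane, had 0 calls, with ant-1.1 at -0.28 ± 0.14 and ant-1.3 at 0.22 ± 0.21.

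**Figure D5:**
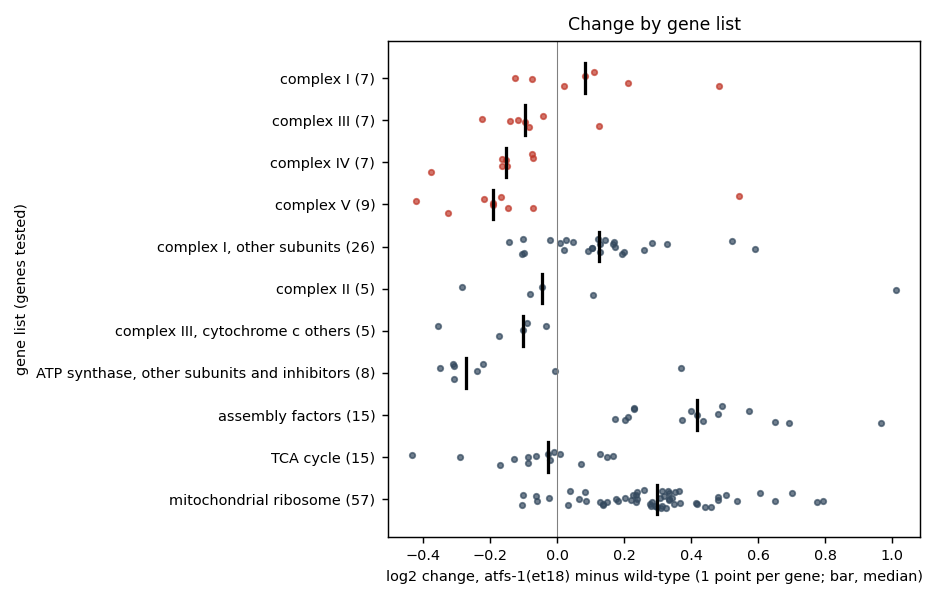
Log2 change (atfs-1(et18) minus wild-type) with 1 point per gene and a bar at each list's median, for the members by complex (top 4 rows) and other mitochondrial lists. All 15 assembly factors lie above 0, while the medians of complexes III, IV and V and of the other ATP synthase genes lie below 0; the complex IV median turns positive with quantile normalization.

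Assembly factors, which build the complexes but are not part of the finished enzymes, had positive changes throughout. Of 15 tested (of 20 listed), 2 rose and 0 fell, where 4.06% of all genes were called (2.69% higher and 1.37% lower). All 15 changes were positive, from 0.17 to 0.97 with a median of 0.42, and 11 did not overlap in the higher direction, where 12.9% of genes did not. The list stayed positive with quantile normalization (median 0.37) and with median scaling (0.36). The gene bcs-1, whose product inserts the Rieske protein into complex III, read 1355, 1418 and 1118 in atfs-1(et18), against 715, 529 and 760 in wild-type. It rose 1.96-fold (log2 change 0.97 ± 0.19, limma adjusted p = 0.0264, from 0.00319 to 0.136 over its alternatives, 6 of 18 of which ended the call). The Rieske protein gene itself, isp-1, had a change of -0.12.

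The heme A synthesis gene cox-15, needed for complex IV, read 897, 872 and 791 in atfs-1(et18), against 532, 558 and 538 in wild-type. It rose 1.57-fold (0.65 ± 0.15, limma adjusted p = 0.0478), and it was no longer called in 11 of 17 alternatives (highest limma adjusted p = 0.221). The groups did not overlap for either gene, and the summed signal of the 15 factors was 14860 to 15520 in atfs-1(et18) and 10660 to 11330 in wild-type. Whether the assembly factors differed from the subunits was not tested as a list.

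For comparison within the mitochondrion, 0 of 15 genes of the tricarboxylic acid (TCA) cycle were called (0 at an unadjusted p under 0.05), with a median of -0.03 and with the isocitrate dehydrogenase gene idhb-1 at -0.43 ± 0.21 and suca-1 at -0.29 ± 0.16. Of 57 mitochondrial ribosomal protein genes, which serve the translation of the subunits encoded in mitochondrial DNA, 2 rose and 0 fell, near the 2.69% of all genes that were called higher. Of the 57, 52 were positive with a median of 0.30, and 27 did not overlap in the higher direction, against 12.9% of all genes. The called genes were mrps-14 (0.79 ± 0.13, limma adjusted p = 0.0121) and mrpl-2 (0.77 ± 0.14, limma adjusted p = 0.0213); mrps-14 was no longer called in 3 of 17 alternatives and mrpl-2 in 7 of 18. The medians of the members (-0.12 with 1 probe set per gene) and the TCA cycle stood nearer 0 than those of the assembly factors and the mitochondrial ribosome. The member median pools complexes of opposite direction, with complex I at 0.08 and complex V at -0.19 on the same basis. The other ATP synthase subunits and inhibitors, at -0.27, stood further from 0.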

How the data were processed

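The authors deposited 1 linear intensity for every probe set on each array. Per the submitters' processing notes the tool was MAS5. Its version and detection calls were not used here. The mean of each array with 2% trimmed at both ends is 500.2, so the deposited intensities had been scaled. Labelled cRNA was made from 2 ug of RNA, per the labels' protocols. Log2 values had no offset. Testing required a signal over the array's 40th percentile on 3 or more of the 6 arrays. Symbols came from the platform annotation, updated by gene identifier with the WBcel235 gene table. The brightest probe set stood for a gene in lists. Genotypes were compared with limma 3.58.1 in R 4.3.3 (two-sided eBayes, variance trend on intensity), and p was adjusted by Benjamini-Hochberg across 13792 probe sets, with calls at an adjusted p under 0.05. Intervals are 95% and single. Gene pairs had an exact permutation test (scipy 1.17.1). The number of arrays limits precision; array correlations were 0.937 to 0.973 within genotypes and 0.895 to 0.941 between them. The fit was run on simulated arrays with independent noise. Those arrays held no shift of bright probe sets between arrays, so the run does not cover such a shift. The members and lists were chosen with earlier results of these data known. All members are named, as are each list's called genes (up to 4) or, with none, the 2 with the smallest p. The 18 alternatives covered scaling, offsets of 16 and 64, filters, variance priors, array weights, a replicate block, probe set choice and each array left out. One for asg-1 was chosen after seeing the data. Figures were drawn with matplotlib 3.10.9.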

Additional observations from a re-analysis of the deposited data

How the results depend on the processing

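The members stayed without a call in all planned settings except array weights, with 5 (nuo-4, cox-7C, atp-5, asg-2 and asb-1), and the leave-one-out fits, with 0 to 1 (asb-1, without wild-type replicate 1). Over all probe sets 542 were called, against 1637 with array weights, 336 with the replicate block, 313 with probe sets of several possible targets left out, and 202 to 871 with 1 array left out. Deviations of same-numbered arrays had correlations of 0.171, 0.175 and -0.397, and those of arrays with unlike numbers ran from -0.501 to 0.478. With 3 arrays per genotype these values cannot show whether the replicate numbers mark pairs. Quantile normalization gave medians of 0.019 for the members, 0.079 for complex IV and -0.11 for complex V. It turned isp-1 to 0.11, cox-4 to 0.087, cox-5B to 0.16, cox-6A to 0.076, cox-6B to 0.075, cox-6C to 0.082, atp-2 to 0.019, atp-4 to 0.065 and atp-5 to 0.035. With probe sets of several possible targets left out, complex I had a median of -0.10 from nuo-1 and nuo-6 alone. The change of nuo-2 was -0.035 with median scaling and -0.028 with array weights, which also gave 0.049 for ucr-2.3 and 0.061 for cox-5B. The mean of its probe sets gave 0.0056 for cyc-1. With 1 array left out, changes ran from -0.24 to 0.022 for nuo-1, -0.064 to 0.086 for nuo-2, -0.044 to 0.215 for gas-1, -0.28 to 0.23 for ucr-2.3, -0.13 to 0.0022 for cox-4, -0.19 to 0.11 for cox-5B and -0.17 to 0.020 for asg-1. Of the assembly factors 2 were called higher, against 5 with array weights, 1 with median scaling, 1 with quantile normalization, 1 with no filter, 1 with those probe sets left out, 0 with no intensity trend, 0 with the replicate block and 0 to 1 with 1 array left out. Their median was 0.36 with median scaling, 0.35 with array weights and 0.37 to 0.49 with 1 array left out. The causes were not tested.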
